A study of Mus musculus with 50 samples.

Results

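The libraries described here are the RiboTag immunoprecipitates (IP) and homogenate-supernatant inputs of unstressed D1-Cre mice, taken from the nucleus accumbens (NAc). They were chosen by label, as the control IP libraries of the D1 line (D1 Con IP 1 to 4) and the control input libraries of the same line (D1 Con input 1 to 3), and make up 7 of the 50 samples of the series. The series compared translated RNA of D1- and D2-receptor medium spiny neurons (MSNs) after chronic social defeat, with further libraries from a line that also carried floxed *Sirt1*. All 7 libraries came from C57BL/6 mice of 8 to 12 weeks with the genotype RT; D1-Cre that met no aggressor and shared matching cages with mice of the same strain. NAc punches from 2 mice were pooled for each sample, and the homogenate was cleared by centrifugation. The supernatant was incubated with an antibody against HA, and homogenate supernatant was saved as input. Nothing in the labels states that an IP and an input with the same number came from 1 homogenate.

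In a RiboTag (RT) mouse, Cre recombinase switches the *Rpl22* gene to a form that carries an HA tag, so that ribosomes of Cre-expressing cells can be pulled down with the RNA they are translating. The input holds RNA of every cell in the punch, and the ratio of IP to input therefore depends both on which cells carry the tag and on how much of an RNA sits on ribosomes. In the NAc most neurons are GABAergic MSNs, which fall into a D1 class (dopamine receptor D1, dynorphin, substance P) and a D2 class (dopamine receptor D2, striatal adenosine receptor, enkephalin), with cholinergic and GABAergic interneurons, glia and vessels around them. The Cre came from a BAC transgene (line FK150) in hemizygous mice, and every control library set beside these carried the RT allele and a Cre as well, so neither untagged tissue nor a mock precipitation enters any comparison. The D2 Con libraries (5 IP, 3 input) used for comparison were RT; D2-Cre (line ER44), of the same strain, age and housing. The defeated D1 libraries were resilient mice (D1 Res, 4 IP and 3 input) and susceptible mice (D1 Sus, 5 IP and 3 input) of the genotype RT; D1-Cre, sorted by social interaction after up to 10 days of defeat. These mice were of the same strain and age (8 to 12 weeks) as the controls, with 2 pooled for each sample.

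Of 14922 genes tested, 2135 were called higher in IP than in input (14.3%) and 4044 lower (27.1%), a call being a fold change over 1.5 with an edgeR quasi-likelihood p of under 0.05 after Benjamini-Hochberg adjustment. The losses were much larger than the gains. More than 4-fold differences were found for 7 genes toward IP and for 1638 genes toward input, and more than 8-fold differences for 0 and 818 genes. The median log2 fold change over all genes was -0.02. When only library size was used for scaling, this median moved to -0.27 and the counts to 777 higher and 5136 lower, so that the gains depend on the scaling more than the losses do. The medians of the lists below shifted by about the same amount, so directions near zero depend on the scaling. All log2 fold changes below are given against 0, without subtracting that median.

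Gene counts summed to between 26378222 and 30187149 per IP and between 20516069 and 24825274 per input. Fewer genes had at least 1 count in the IPs (16409 to 16547) than in the inputs (17319 to 17515). Reads outside annotated features, as a share of these and the reads counted in genes, made up 11.3% ± 0.343 (SD, n = 4) in IP and 24.3% ± 0.956 (SD, n = 3) in input. The difference of -13.01 percentage points gave p = 0.0286 in a two-sided exact permutation test, the smallest value that 4 against 3 libraries can give. D1 Con IP 1 and D1 Con input 1 stood apart from the rest of their groups, with the highest MSN and the lowest cortical marker levels, and medians of the lists concerned are also given without both, a choice made after seeing the data.

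MSN genes were higher in IP, but moderately and unevenly. Of 24 genes of MSN identity, 12 were called higher and 0 lower (against 14.3% and 27.1% of all genes), with a median log2 fold change of 0.63. *Ppp1r1b*, which encodes DARPP-32, the dopamine-regulated phosphatase inhibitor of MSNs (chr11:98348404-98357796, plus strand, GRCm38), measured 2207, 1624, 1571 and 1632 counts scaled by TMM factors and library size (CPM, a share of the reads in genes) in the 4 IPs and 937, 691 and 619 CPM in the 3 inputs. The groups did not overlap, and the first library of each was the highest. The log2 fold change was 1.23 ± 0.13 (SE), with an adjusted p of 1.3e-07 in edgeR.

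*Dclk3*, a doublecortin-like kinase, stood at 428, 351, 344 and 354 CPM in IP and at 187, 156 and 148 CPM in input, a 2.26-fold gain. *Scn4b*, an auxiliary sodium channel subunit of striatal neurons, gained 2.17-fold. The transcription factors *Foxp2*, *Bcl11b* and *Foxp1*, which shape MSN differentiation, gained 1.04, 0.93 and 0.89 on the log2 scale. Other members of the list stayed under the fold threshold. *Pde10a*, the striatal phosphodiesterase, had a log2 fold change of 0.38, *Rgs9*, a regulator of G protein signalling, 0.23, and *Gng7*, the G protein gamma subunit that works with Golf, 0.09, all with overlapping groups. The summed CPM of the whole list ran from 14799 to 18736 in IP and from 9017 to 11981 in input, so the IP mean was 158% of the input mean. Without the first IP and input the median log2 fold change of the list was 0.70.

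**Figure D1:**
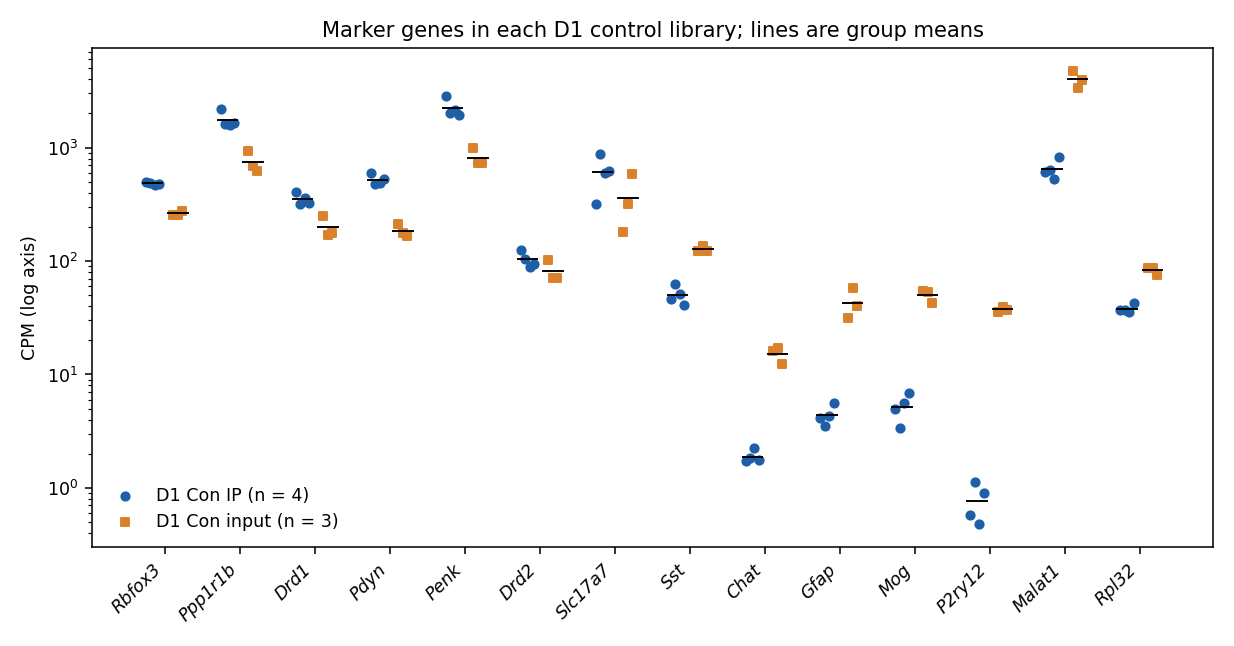
CPM of 14 marker genes (log axis) in each of the 4 D1 Con IP libraries (circles) and 3 D1 Con input libraries (squares), with short lines at the group means. Neuronal and MSN genes sit higher in IP, glial, microglial, cholinergic and noncoding genes sit far lower, and for *Slc17a7* and *Drd2* the groups overlap.

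General neuronal genes were higher in IP as well. Of 16 pan-neuronal genes, 12 were called higher (75%, against 14.3% of all genes) and 0 lower, with a median log2 fold change of 0.86. *Eno2*, the neuronal enolase, read 1921, 1761, 1794 and 1739 CPM in IP and 830, 775 and 781 CPM in input. The IP libraries lay within a narrow band at 2.27 times the inputs (edgeR adjusted p = 4.9e-12). *Tubb3*, the neuronal beta-tubulin, gained 2.32-fold and *Rbfox3*, which encodes NeuN, 1.83-fold. *Slc32a1*, the vesicular GABA transporter, gained 1.98-fold, whereas *Gad2*, a GABA-synthesizing enzyme, reached only 1.43-fold (0.52 ± 0.09 on the log2 scale, SE) and was not called.

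Genes of the D1 class were among the MSN genes that rose. Of 9 D1 markers tested, 6 were called higher (66.7%, against 14.3% of all genes) and 0 lower (against 27.1%). Their median was 0.82 on the log2 scale. *Pdyn*, the precursor of dynorphin (chr2:129686565-129699844, minus strand), measured 597, 476, 483 and 523 CPM in IP against 211, 176 and 166 CPM in input. Every IP was more than 2-fold above every input. The log2 fold change of 1.497 ± 0.13 (SE, edgeR adjusted p = 7.1e-09) was the largest of the list.

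*Tac1*, the substance P precursor, read 409, 347, 349 and 352 CPM in IP and 171, 150 and 143 CPM in input (1.24 ± 0.11, SE, log2 scale). *Drd1* itself (chr13:54051183-54055705, minus strand) read 407, 317, 359 and 322 CPM in IP and 250, 171 and 178 CPM in input (0.82 ± 0.14). The gain of the receptor that defines the class was thus 1.76-fold, and with library size only it was 0.57 on the log2 scale and not called. *Slc35d3*, which takes part in D1 receptor trafficking, *Chrm4*, the muscarinic M4 receptor, and *Isl1*, a transcription factor of D1 neurons, had log2 fold changes of 0.95, 0.96 and 0.66, and all were called higher, with *Isl1* losing the call without D1 Con input 3 (0.57), with library size only (0.41) and with upper quartile factors (0.54). Without D1 Con IP 1 and D1 Con input 1 the median of the list was 0.94. *Sfxn1*, *Eya1* and *Zfp521* were not called, at -0.09, 0.03 and -0.18.

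Markers of the other MSN class were higher in these IPs as well. Of 8 D2 markers, 4 were called higher (50%, against 14.3% of all genes) and 0 lower (against 27.1%). Their median of 0.66 lay close to that of the D1 markers. *Penk*, the enkephalin precursor (chr4:4133531-4138819, minus strand), measured 2871, 2030, 2158 and 1933 CPM in IP and 988, 730 and 731 CPM in input. All IPs lay above all inputs, and the gain of 2.75-fold (1.46 ± 0.13, SE, log2 scale, edgeR adjusted p = 1.4e-08) was nearly that of *Pdyn*.

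*Adora2a*, the striatal adenosine receptor, read 428, 317, 285 and 302 CPM in IP and 216, 161 and 143 CPM in input (0.94 ± 0.13). *Gpr6*, an orphan receptor of D2 neurons, gained 1.81-fold and *Upb1* 2.02-fold. *Drd2* was the lowest of the list, with 126, 104, 89.3 and 94.6 CPM in IP and 103, 71.5 and 71.3 CPM in input. Its groups overlapped and its log2 fold change of 0.34 ± 0.13 (edgeR adjusted p = 0.032) was under the fold threshold. In the first IP the summed D2 list reached 3595 CPM, against 2469 to 2669 CPM in the other 3, and the first input was likewise the highest input at 1416 CPM. Without both of these first libraries the median of the D2 markers was 0.66 as well.

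The test that separates the classes is the difference from the D2 line, in which the same comparison was made with D2 Con libraries. Over all genes, 342 (2.29%) were called with a higher IP-to-input ratio in D1 than in D2 and 165 (1.11%) with a lower one. Of the 9 D1 markers, 8 were called higher in D1 and 0 lower, and of the 8 D2 markers all 8 were called lower. Among the D1 markers *Chrm4* lost the call without D1 Con input 2 (0.64) and *Sfxn1* without D1 Con input 1 (0.58) or D2 Con IP 2 (0.56). *Pdyn*, with a log2 fold change of -0.62 in the D2 line, differed between lines by 2.12 ± 0.17 (SE, edgeR adjusted p = 8.6e-07). *Penk* rose by 3.03 on the log2 scale in the D2 line and differed by -1.56 ± 0.18 (edgeR adjusted p = 4.1e-05). *Drd1* was not enriched in D2 IPs (-0.30) and differed by 1.12 ± 0.18, and *Drd2*, at 1.82 in D2, differed by -1.49 ± 0.18.

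MSN identity genes had a median of 1.16 in the D2 line, where 23 of 24 were called higher (against 14.7% of all genes, with 27.9% lower). Of the 24, 4 differed between lines, all lower in D1 (against 1.11% of all genes). Among them were *Rasd2*, a striatal small GTPase (difference -0.73 ± 0.17, SE), *Rxrg*, a retinoid receptor (-0.67 ± 0.15), and *Foxp1* (-0.65 ± 0.13). Without D1 Con input 1, *Rasd2*, *Rxrg* and *Foxp1* were no longer called (-0.55, -0.52 and -0.52), nor was *Rasd2* without D2 Con input 1 or D2 Con input 2 (-0.68 in each) or *Rxrg* without D2 Con input 1 (-0.62). The number of differences between lines depended on single libraries. Leaving out D1 Con input 1 lowered the genes called higher in D1 from 342 to 177, and leaving out D1 Con IP 1 raised them to 535 and those called lower from 165 to 225. Without D2 Con input 1, 97 genes were called lower. Without both D1 Con IP 1 and D1 Con input 1, a choice made after seeing the data, 337 genes were called higher and 154 lower.

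**Figure D2:**
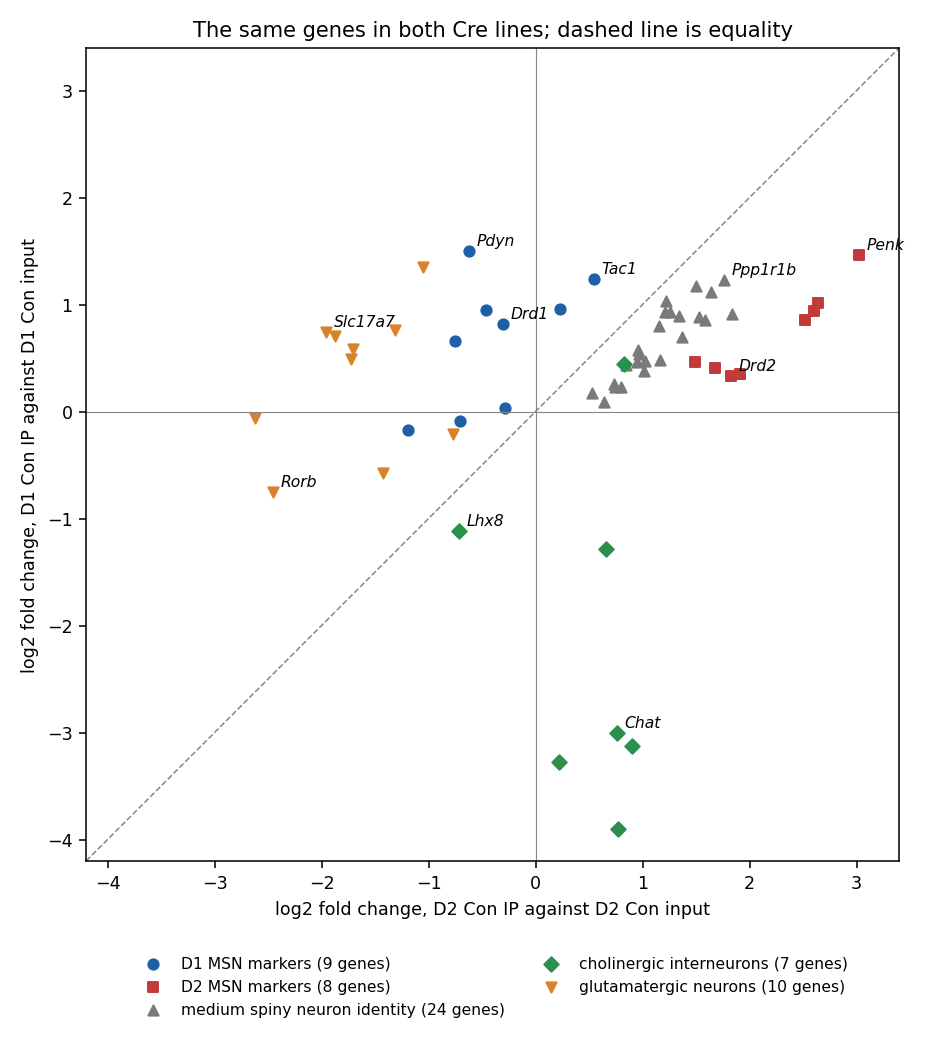
Log2 fold change of IP against input in D1 control mice (vertical axis) and in D2 control mice (horizontal axis) for genes of 5 lists, 1 point per gene, with the dashed line marking equal values. D2 markers and MSN identity genes lie below the line on the positive side of both axes, D1 markers above it, cholinergic genes such as *Chat* far below it, and glutamatergic genes above it on the negative side of the D2 axis.

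Cholinergic interneurons, which make acetylcholine in the striatum and are known to express the D2 receptor, had the lowest median of the neuronal lists. Of 7 genes, 6 were called lower (85.7%, against 27.1% of all genes) and 0 higher (against 14.3%). The median was -3.01, or -2.91 without the first IP and input. *Chat*, choline acetyltransferase (chr14:32408203-32465989, minus strand), measured 1.72, 1.82, 2.23 and 1.78 CPM in IP and 16.2, 17.3 and 12.3 CPM in input. The groups were far apart, and the IP mean was 12.4% of the input mean (-3.01 ± 0.19, SE, log2 scale, edgeR adjusted p = 1.1e-10).

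*Slc5a7*, the choline transporter, read 2.66, 3.68, 4.38 and 3.95 CPM in IP and 42.5, 37.0 and 27.2 CPM in input, a 9.66-fold loss. *Slc18a3*, the vesicular acetylcholine transporter, fell by 3.899 on the log2 scale. *Slc18a3* lies within the *Chat* locus on the same strand, so reads of the 2 genes may not be separable. *Tacr1*, the substance P receptor, fell by 1.29 and *Lhx8*, a transcription factor of cholinergic neurons, by 1.11 on the log2 scale. *Gbx2* was low in both groups, at most 2.73 CPM, and was not called.

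In the D2 line the same 7 genes had a median of 0.76. There 4 were called higher (against 14.7% of all genes) and 1 lower (against 27.9%). The difference between lines was called for 5 of the 7, all lower in D1 (against 1.11% of all genes). It was -3.77 ± 0.25 for *Chat* (SE, edgeR adjusted p = 1.4e-07). *Slc18a3*, *Chat* and *Slc5a7* were among the 5 largest called differences toward D2 of genes with at least 5 CPM in some group, as was *Slc10a4*, a vesicular transporter relative of cholinergic and monoaminergic neurons (-2.93 ± 0.30).

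GABAergic interneuron genes were called in both directions, at shares not far from those of all genes. Of 10 genes, 4 were called lower (40%, against 27.1% of all genes) and 1 higher (10%, against 14.3%), with a median of -0.42. *Npy*, neuropeptide Y, measured 9.58, 12.0, 9.15 and 10.2 CPM in IP and 37.9, 43.1 and 42.9 CPM in input, a 4.04-fold loss. *Sst*, somatostatin, measured 46.5, 63.2, 51.3 and 41.0 CPM in IP and 122, 136 and 122 CPM in input. In both genes every IP lay below every input. *Nos1*, the neuronal nitric oxide synthase of the same interneurons, fell by 0.89 on the log2 scale, and *Vip* by 1.95 with overlapping groups. *Pvalb*, the parvalbumin of fast-spiking cells, was not called (-0.26).

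*Pthlh*, a parathyroid hormone-like peptide, was the member that rose. It read 4.59, 3.405, 4.01 and 4.35 CPM in IP and 2.42, 1.52 and 2.23 CPM in input (0.99 ± 0.22, SE, edgeR adjusted p = 0.00047). In the D2 line it fell by 3.00 on the log2 scale, and the difference of 4.00 ± 0.35 was called (edgeR adjusted p = 1.1e-06). *Npy* differed the other way, by -1.16 ± 0.19. Neither *Sst* nor *Vip* was called in that test.

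Cortical glutamatergic genes, which do not belong to NAc MSNs, varied widely between libraries. Of 10 genes, 1 was called higher (10%, against 14.3% of all genes) and 1 lower (*Rorb*, 10%, against 27.1%). The median was 0.54, and the groups overlapped for all 10. The count called higher was 3 without D1 Con IP 1, 0 without D1 Con IP 2 or D1 Con input 2, and 5 without D1 Con input 3. *Slc17a7*, the vesicular glutamate transporter VGLUT1 (chr7:45163949-45176142, plus strand), measured 319, 884, 602 and 617 CPM in IP and 179, 319 and 583 CPM in input. The first IP was as low as the second input, and the log2 fold change of 0.75 ± 0.40 (SE, edgeR adjusted p = 0.11) did not pass. The call of *Rorb*, a marker of cortical layer neurons, was lost without D1 Con IP 1 (-0.55).

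The summed glutamatergic list ran at 422, 1151, 800 and 771 CPM in IP and at 270, 447 and 780 CPM in input. MSN identity genes ran opposite to it in the first pair of libraries, where IP 1 and input 1 held the highest MSN sums. How far the punches included tissue outside the NAc was not tested. In the D2 line all 10 genes were called lower (against 27.9% of all genes), with a median of -1.72. Of the 10, 5 differed between lines, all higher in D1 (against 2.29% of all genes). *Slc17a7* differed by 2.71 ± 0.56 (SE, edgeR adjusted p = 0.0087). Without D1 Con IP 1 and D1 Con input 1 the log2 fold change of *Slc17a7* in D1 was 0.63, the difference from D2 was 2.58, and the median of the list in D1 was 0.41.

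Genes with a similar spread were found in other lists. *Cck*, cholecystokinin, measured 41.5, 105, 74.3 and 68.9 CPM in IP and 18.7, 32.9 and 52.5 CPM in input, and *Bdnf*, the brain-derived neurotrophic factor, 3.48, 13.9, 13.1 and 6.96 CPM in IP and 2.20, 3.87 and 6.63 CPM in input. Both were called higher (1.05 ± 0.35 and 1.13 ± 0.43, SE, log2 scale) with overlapping groups, and both were lowest in the first library of each group. The call of *Cck* was lost without D1 Con input 1 (0.76), and that of *Bdnf* without D1 Con IP 2 (0.88), D1 Con IP 3 (0.91), D1 Con input 1 (0.84) or D1 Con input 2 (1.07), and in DESeq2, with library size only and among genes averaging 50 counts or more. They differed between lines by 2.50 ± 0.49 and 3.12 ± 0.63. *Adcyap1*, the PACAP precursor, had the largest called difference toward D1 among genes with at least 5 CPM in some group (3.44 ± 0.79) although its D1 values, from 4.31 to 20.2 CPM in IP and from 1.5 to 11.4 CPM in input, overlapped, and the call was lost without D2 Con input 1 (2.94). *Ebf1*, a transcription factor of striatonigral neurons, differed by 3.07 ± 0.26, with 0.24 in D1 and -2.83 in D2.

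**Figure D3:**
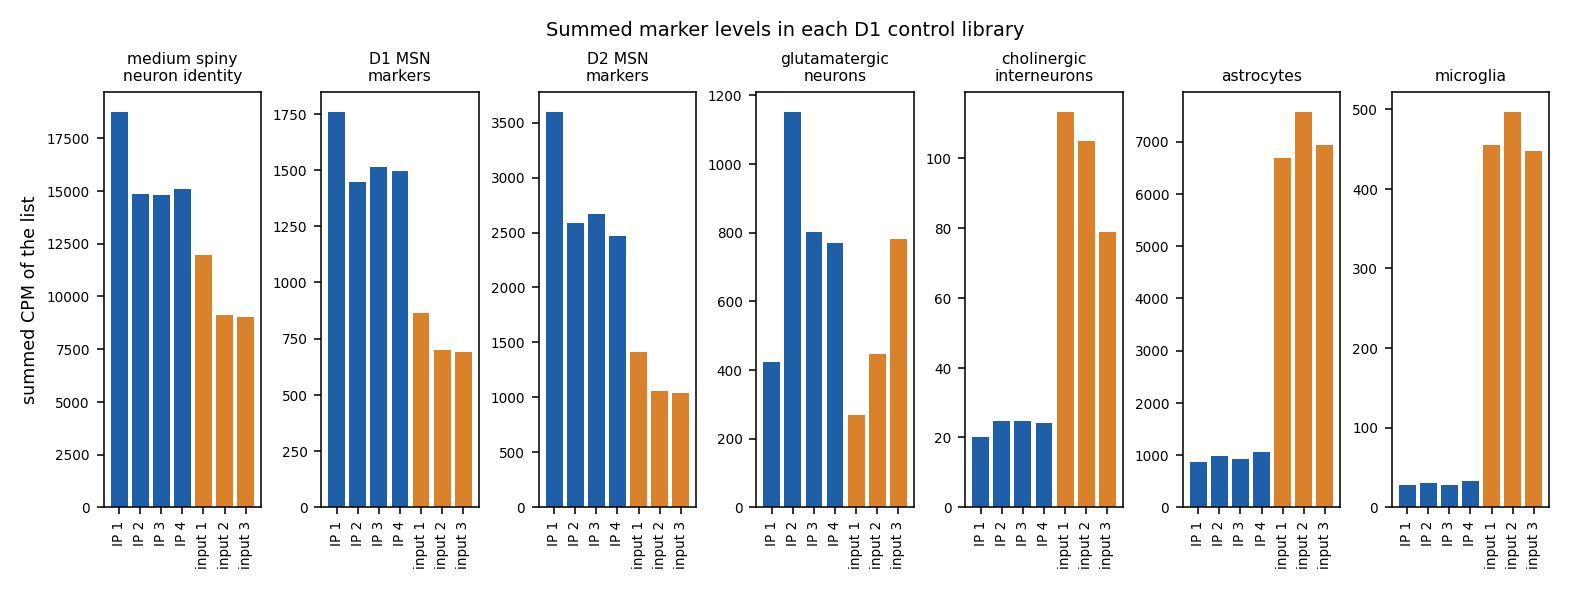
Summed CPM of 7 marker lists in each D1 Con IP (blue) and D1 Con input (orange) library, each panel with its own linear axis from 0. MSN sums are higher and astrocyte, microglia and cholinergic sums lower in every IP than in every input, and the glutamatergic sum varies from 422 to 1151 CPM among IPs and from 270 to 780 CPM among inputs.

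Non-neuronal markers were lower in IP almost without exception. Over 10 lists of glial, vascular, ependymal and blood genes, 80 of 92 were tested. Of these, 76 were called lower, 1 higher and 3 neither, against 27.1% lower and 14.3% higher of all genes. Astrocyte genes were lower for 15 of 15 (median -3.02), oligodendrocyte genes for 13 of 13 (-3.26) and oligodendrocyte precursor genes for 4 of 4 (-2.73). *Slc1a2*, the astrocytic glutamate transporter GLT-1, measured 292, 427, 372 and 367 CPM in IP and 3050, 3237 and 3263 CPM in input, so 11.5% of the input level was left. *Mbp*, myelin basic protein, measured 232, 201, 236 and 237 CPM in IP and 2270, 2485 and 1955 CPM in input, or 10.1%. *Gfap* was left at 10.3%. Among astrocyte genes, *Slc4a4*, a bicarbonate cotransporter, was the exception in size, at 60.1% of input (-0.73 ± 0.09, SE).

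Microglial genes had the lowest median of these lists. All 13 were called lower (against 27.1% of all genes), with a median of -4.23. *P2ry12*, the purinergic receptor of homeostatic microglia (chr3:59216272-59262871, minus strand), measured 0.574, 1.12, 0.480 and 0.909 CPM in IP and 35.8, 39.5 and 37.2 CPM in input. No IP came near an input, and 2.06% of the input level was left (-5.62 ± 0.19, SE, edgeR adjusted p = 2.5e-14). *Csf1r*, the colony-stimulating factor receptor, was left at 5.35%, and the summed microglial list ran from 28.1 to 33.5 CPM in IP and from 447 to 496 CPM in input.

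Vascular genes were lower as well. Endothelial genes were lower for 12 of 12 (median -3.77, against 27.1% of all genes). Mural genes were lower for 6 of 7 (-4.12) and fibroblast genes for 6 of 6 (-3.95). *Cldn5*, the tight-junction claudin of brain endothelium, read 1.29, 1.16, 0.925 and 0.909 CPM in IP and 13.2, 14.5 and 15.5 CPM in input. *Vtn*, vitronectin of pericytes, was left at 3.10% of input. *Acta2*, smooth muscle actin, and *Kcnj8*, a pericyte potassium channel, had at most 3 counts in every IP, with up to 0.119 CPM each, against 2.09 to 3.65 CPM and 1.72 to 2.05 CPM in input. *Tagln*, a smooth muscle protein, was not called (0.24, at most 4.34 CPM), nor was *Cd163* among macrophage genes (-0.28, at most 1.24 CPM). Which cells carry the tag and how much of an RNA sits on ribosomes cannot be told apart in these ratios.

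The 1 non-neuronal marker called higher was *Clic6*, a chloride channel listed with the choroid plexus, at 39.4, 31.5, 35.6 and 37.1 CPM in IP and 20.03, 20.7 and 17.9 CPM in input (0.88 ± 0.15, SE, edgeR adjusted p = 3.9e-05). *Kl*, the other choroid gene above the count filter, was at 0.40 and not called, while *Ttr*, transthyretin, stayed at or under 1.28 CPM in all 7 libraries. Ciliary genes of the ependyma went the opposite way from *Clic6*, with *Tmem212* at 0 counts in every IP and at least 4.68-fold lower. Of the erythroid genes *Alas2* was tested and called lower, and the globin genes were listed at 0 in every library. Every one of these lists had a negative median in the D2 line as well. Of the 80 genes, 5 differed between lines, against 2.29% of all genes higher and 1.11% lower in D1.

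**Figure D4:**
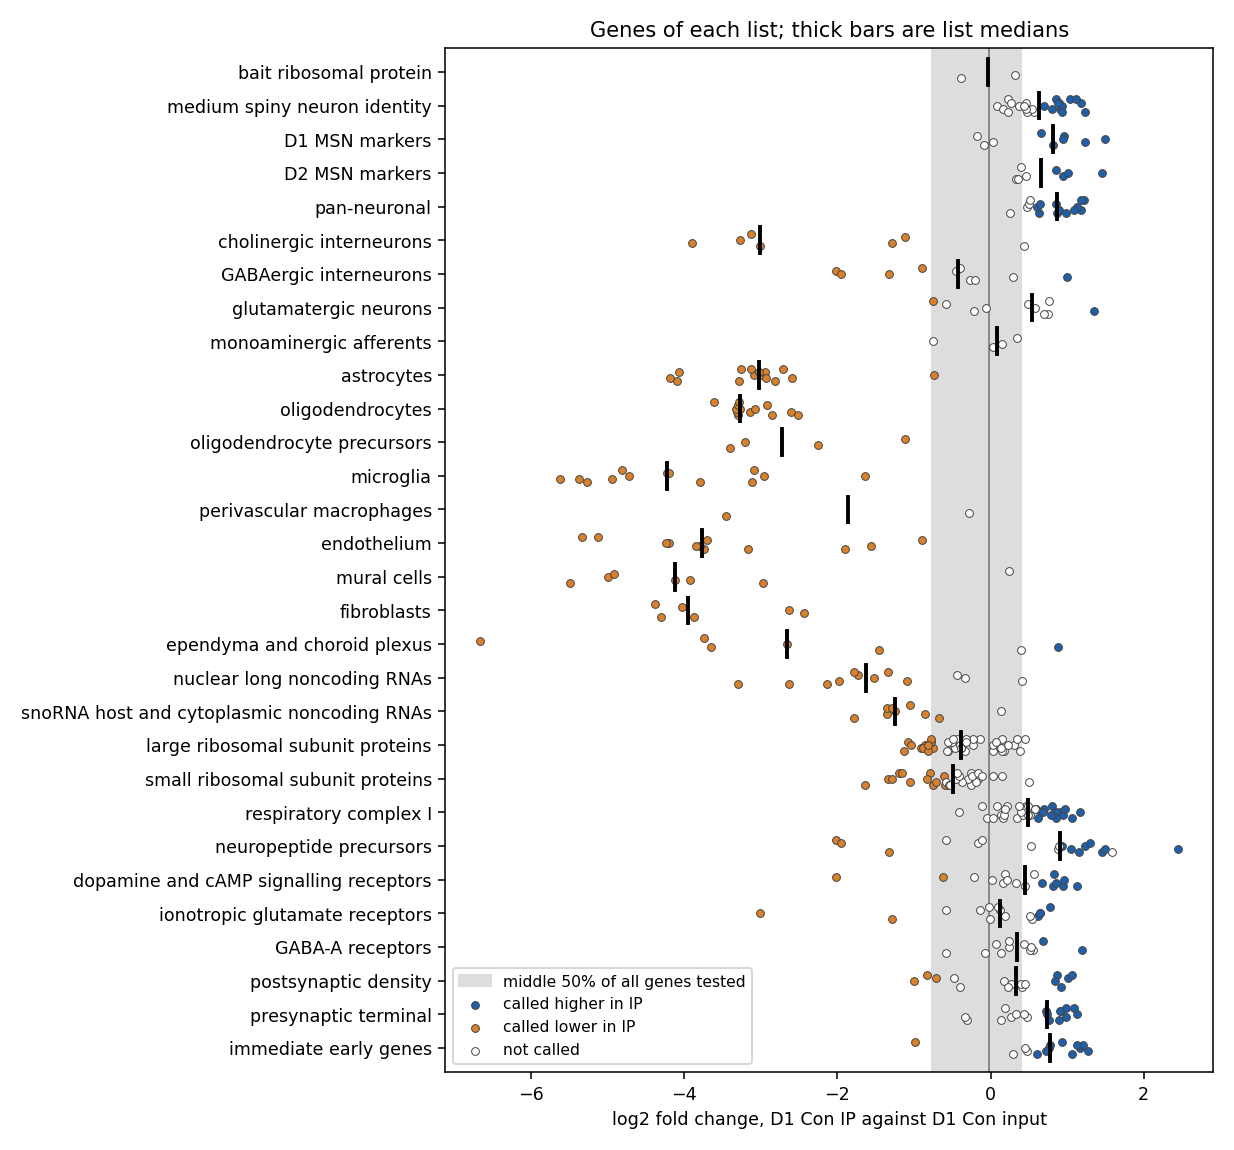
Log2 fold change of D1 Con IP against D1 Con input for the tested genes of each list with 2 or more tested genes, with filled points for called genes, open points for the rest and thick bars at list medians. The grey band spans the middle 50% of all genes tested, the pan-neuronal median is 0.86 and the cholinergic median -3.01, and the medians of glial and vascular lists run from -4.23 for microglia to -1.86 for perivascular macrophages.

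Long noncoding RNAs, of which many stay in the nucleus, were called lower far more often than higher. Of 536 tested, 276 were called lower (51.5%) and 8 higher (1.49%), with a median of -0.86, against 25.6% and 15% of 13976 protein-coding genes with a median of 0.02. Of 12 nuclear long noncoding RNAs in the list, 9 were called lower (75%, against 27.1% of all genes) and 0 higher (median -1.63). *Malat1*, which gathers in nuclear speckles (chr19:5795690-5802672, minus strand), measured 609, 630, 531 and 828 CPM in IP and 4736, 3366 and 3985 CPM in input. The IPs held 16.1% of the input level. *Meg3*, an imprinted noncoding RNA of neurons, measured 2342, 2535, 2568 and 2583 CPM in IP and 7458, 7377 and 6738 CPM in input, or 34.9%.

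*Mirg*, from the same imprinted cluster as *Meg3*, fell by 3.30 on the log2 scale and *Snhg11* by 2.13. *Peg13*, although noncoding and imprinted, was at 0.41 and not called. *Meg3*, *Snhg11* and *Snhg14* were lower in D1 than in D2 IPs relative to input, by -0.77 ± 0.17, -0.72 ± 0.12 and -0.66 ± 0.14 (SE). *Snhg14* lost that call without D2 Con input 1 (-0.58). Reads outside exons were fewer in the same IPs, and how they relate to these RNAs was not tested.

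RNAs of the translation machinery had a median below that of all genes, with calls lower at a share near the background. Of 77 ribosomal protein genes tested, 24 were called lower (31.2%, against 27.1% of all genes) and 0 higher, and 59 were below zero, with a median of -0.44 and a range from -1.64 to 0.50. The calls were 12 large-subunit and 12 small-subunit genes, and with library size only 24 and 20. *Rps29*, a small-subunit protein, measured 44.4, 39.6, 40.0 and 52.7 CPM in IP and 137, 146 and 129 CPM in input, or 32.2% of input. *Rpl32*, a large-subunit protein, measured 37.2, 37.0, 35.4 and 42.6 CPM in IP and 87.2, 86.6 and 75 CPM in input, or 45.8%. *Fau*, which encodes a ubiquitin-like fusion with a small-subunit protein, was the highest (0.50, not called). Ribosomal protein genes have many near-identical pseudogene copies, and reads that match several places were left out of the deposited counts, at 4.96% of reads in IP and 10.5% in input, so their single values are uncertain.

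Transcripts of this class typically start with a C and a run of pyrimidines, the 5′ TOP, through which their translation is held back when growth signals are low. So do several hosts of small nucleolar RNAs, noncoding RNAs that reach ribosomes. The first 20 bases of 4 such transcripts are shown because each was called lower in IP, taken from the GENCODE models on GRCm38, with the leading pyrimidine run in capitals. *Rpl32* starts at chr6:115808728-115808747 (minus strand), *Rpl37* at chr15:5116645-5116664 (plus), *Gas5* at chr1:161034929-161034948 (plus) and *Snhg8* at chr3:123508385-123508404 (minus).
Rpl32: CTTCCTTCTTCCTCggcgct
Rpl37: CTCTTCCggtctctttggcc
Gas5: CCCCTCagcctgtactcctc
Snhg8: CCCTCgcgcgcaggctcttg

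A start of this form, a C followed by at least 4 C or T on the transcribed strand, was found in at least 1 transcript of 34 of the 77 ribosomal protein genes (44.2%), of 5 of the 9 host and cytoplasmic noncoding genes (55.6%), and of 10.2% of 14696 genes matched. Within the ribosomal protein genes the median log2 fold change was -0.43 with such a start and -0.44 without one, so the start as read here did not separate the lower from the higher members. Over the genes outside both classes the medians were -0.01 and -0.01. Of the 9 noncoding genes, 8 were called lower (88.9%, against 27.1% of all genes) and 0 higher, and the 1 not called was at 0.14. The summed CPM of these genes was not lower, at 1320 to 1570 in IP and 1336 to 1469 in input. *Gas5* measured 21.97, 18.96, 20.3 and 23.6 CPM in IP and 77.2, 72.9 and 69.0 CPM in input (-1.78 ± 0.10, SE, edgeR adjusted p = 1.5e-11), and *Snhg8* fell by 1.35 on the log2 scale. The tagged protein's own gene, *Rpl22* (chr4:152325742-152334071, plus strand), was at 76.3% of input and under the fold threshold (-0.39 ± 0.07).

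Nuclear-encoded subunits of respiratory complex I, which passes electrons from NADH into the mitochondrial chain, were called higher or not at all. Of 35 tested, 14 were called higher (40%, against 14.3% of all genes) and 0 lower, with a median of 0.49. The count was 7 with library size only, 9 with upper quartile factors and 9 among genes averaging 50 counts or more. *Ndufv1*, the subunit that binds NADH, measured 240, 222, 228 and 210 CPM in IP and 99.5, 101 and 99.3 CPM in input. All IPs were more than 2-fold above the inputs (1.17 ± 0.08, SE, edgeR adjusted p = 1.4e-10). *Ndufs1*, the largest iron-sulfur subunit, gained 2.09-fold. Neither the ribosomal nor the complex I list held a gene that differed between the D1 and D2 lines. The mitochondrially encoded subunits are not listed in the table used.

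Synaptic genes were called on both sides of the synapse. Of 18 presynaptic genes, 10 were called higher (55.6%, against 14.3% of all genes) and 0 lower (median 0.73). Of 16 postsynaptic density genes, 5 were called higher (31.2%) and 3 lower (18.8%, against 27.1% of all genes), with a median of 0.33. The D2 line had medians of 0.34 and 0.39 for these lists. *Syp*, synaptophysin of synaptic vesicles, gained 2.20-fold. *Camk2a*, the calcium-dependent kinase of spines, measured 2995, 3017, 3067 and 3401 CPM in IP and 1548, 1628 and 1946 CPM in input, a 1.83-fold gain. *Synpo*, synaptopodin of the spine apparatus, gained 2.09-fold. The scaffold genes *Shank2*, *Shank1* and *Homer2* were lower (-0.84, -0.71 and -1.0 on the log2 scale). The groups overlapped for *Shank1*, whose call was lost without D1 Con IP 1 (-0.57) or D1 Con input 3 (-0.54), and for *Homer2*, whose call was lost without D1 Con input 3 (-0.66).

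Receptor genes moved both ways. Of 17 dopamine, adenosine, opioid, muscarinic, cannabinoid and serotonin receptors, 7 were called higher (41.2%, against 14.3% of all genes) and 2 lower (11.8%, against 27.1%), and with library size only 4 were called higher. *Htr4*, a serotonin receptor coupled to cAMP, read 21.4, 19.1, 21.0 and 20.1 CPM in IP and 11.4, 8.51 and 8.33 CPM in input (1.12 ± 0.12, SE). *Oprm1*, the mu opioid receptor, read 3.16, 2.13, 2.23 and 3.83 CPM in IP and 13.4, 11.2 and 9.93 CPM in input, a 4.05-fold loss. The groups were apart for both genes.

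Of 15 ionotropic glutamate receptor genes, 4 were called higher (26.7%, against 14.3% of all genes) and 2 lower (13.3%, against 27.1%). With library size only 0 were called higher. *Grin1*, the obligatory NMDA receptor subunit, gained 1.72-fold (not called with library size only), whereas *Grin2c*, an NMDA subunit known from glia and cerebellum, read 5.53, 5.73, 6.99 and 8.10 CPM in IP and 47.5, 56.8 and 54.1 CPM in input, an 8.02-fold loss. *Grin2a* was at 41.0% of input. Of 12 GABA-A receptor genes, 2 were called higher (16.7%, near the 14.3% of all genes) and 0 lower, among them *Gabrd*, the delta subunit of extrasynaptic receptors, gained 2.28-fold.

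Peptide precursors lay on both sides. Of 18 tested, 8 were called higher (44.4%, against 14.3% of all genes) and 3 lower (16.7%, against 27.1%), with a median of 0.91, or 0.85 without the first IP and input. Besides *Pdyn*, *Penk* and *Tac1*, *Nts*, neurotensin, measured 51.5, 46.4, 56.5 and 50.7 CPM in IP and 21.0, 21.95 and 19.8 CPM in input (1.29 ± 0.17, SE), and *Cartpt*, the CART peptide, gained 1.91-fold. *Crh*, corticotropin-releasing hormone, gained 2.23-fold from 3.62 to 5.13 CPM in input, and it was lower in D2 IPs (difference 1.81 ± 0.37, edgeR adjusted p = 0.0076). *Avp* was called higher but stayed at or under 1.07 CPM in every library.

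Immediate early genes, which neurons transcribe within minutes of activity, were higher for 10 of 14 (71.4%, against 14.3% of all genes) and lower for 1 (median 0.77, or 0.87 without the first IP and input), in mice that were not defeated. The count called higher was 4 with library size only, 6 among genes averaging 50 counts or more, and 6 without D1 Con IP 3 or D1 Con input 2. *Egr1*, a zinc-finger transcription factor, read 293, 313, 311 and 201 CPM in IP and 133, 94.9 and 135 CPM in input (1.21 ± 0.16, SE, edgeR adjusted p = 2.1e-06). All IPs were above all inputs. *Fos* ranged from 2.73 to 20.6 CPM in IP and from 2.96 to 6.78 CPM in input and was called at an adjusted p of 0.045 (edgeR) with overlapping groups. That call was lost without any one of the 3 IPs 1 to 3, without D1 Con input 2 or 3, and without D2 Con IP 1, D2 Con IP 4 or D2 Con input 2, with log2 fold changes from 0.57 to 1.21. *Npas4*, an activity-dependent regulator of inhibitory synapses, was the 1 member called lower, at 9.19, 13.9, 7.61 and 6.56 CPM in IP and 22.6, 16.6 and 16.4 CPM in input.

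The largest gains with separate groups and at least 10 CPM were mostly not classical markers. *Nedd9*, a scaffold of focal adhesion signalling (chr13:41309581-41487362, minus strand), measured 35.5, 36.8, 38.1 and 35.3 CPM in IP and 8.93, 7.52 and 9.22 CPM in input, and *Aftph*, a protein of clathrin-mediated trafficking, 294, 282, 355 and 330 CPM in IP and 87.3, 87.8 and 86.8 CPM in input. The replicates of each group were close together, and the gains were 4.25-fold and 3.61-fold. *Hsf2*, a heat shock transcription factor, *Igip*, *Pgam2*, a phosphoglycerate mutase, *Bcar1*, another adhesion scaffold, *C1qtnf4*, *Morf4l1b* and *Ngef*, a guanine nucleotide exchange factor for small GTPases, followed with log2 fold changes from 1.47 to 1.74. The counts of *Morf4l1b* may be shared with its parent gene.

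*Nedd9*, *Aftph*, *Hsf2* and *Bcar1* rose in the D2 IPs as well and rose further there, with differences of -0.61 ± 0.14, -0.65 ± 0.11, -0.67 ± 0.16 and -0.72 ± 0.12 (SE) that were all called in edgeR. *Nedd9* lost the call without D1 Con input 1 (-0.59), D1 Con input 3 (-0.55), D2 Con IP 2 (-0.57) or D2 Con input 1 (-0.51), and *Hsf2* without D2 Con input 1 (-0.64). The 10 largest losses chosen in the same way are genes known from microglia or vessels. They were *Gpr34* (-5.66), *P2ry12*, *Ctss* (-5.37), *C1qb* (-5.26), *Abcb1a* (-5.13), *P2ry13* (-5.07), *Vtn*, *C1qc* (-4.95), *C1qa* (-4.82) and *Selplg* (-4.77). *Gpr34*, a lysophosphatidylserine receptor of microglia, read 0.251, 0.116, 0.274 and 0.198 CPM in IP against 9.90, 12.95 and 10.0 CPM in input.

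Transcript length went with the fold change only weakly. Over 13976 protein-coding genes with a length, Spearman's rank correlation was -0.07 across genes, which are not independent replicates. From the shortest to the longest of 5 equal groups the median log2 fold change went from 0.08 to -0.09, and the share called higher from 18.99% to 9.30%.

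The same comparison in defeated D1 mice used libraries that the control comparison does not share. In D1 Res, 2025 of 15105 genes were called higher (13.4%) and 4063 lower (26.9%), and in D1 Sus 2150 higher (14.2%) and 4020 lower (26.6%). Of the genes called in controls and tested in both models, 81.8% of the higher and 90% of the lower were called the same way in Res, and 83.8% and 89.1% in Sus. These were 86.2% and 91.8% of the Res calls and 83.3% and 91.9% of the Sus calls. No gene was called in opposite directions. The IP-to-input ratio of controls was also tested against the mean of the Res and Sus ratios. This difference was called for 0 genes in edgeR, with 303 at an unadjusted p under 0.05. In DESeq2 it was called for 0 genes, with 277. Controls were not tested against Res or Sus alone, and opposite shifts in these groups cancel in their mean.

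Medians of the same lists can be set side by side in the 3 groups. MSN identity genes had medians of 0.63 in Con, 0.73 in Res and 0.53 in Sus, D1 markers 0.82, 0.96 and 0.70, and D2 markers 0.66, 0.78 and 0.65. Glutamatergic genes had 0.54, -0.03 and 1.32. None of the 10 differed in the test against the mean of Res and Sus. As these medians lie on opposite sides of Con, that test cannot show whether either group differs from it. *Slc17a7* had log2 fold changes of 0.75 in Con, 0.17 in Res and 1.37 in Sus. *Chat* was at -3.01, -2.21 and -2.88, *Pdyn* at 1.497, 1.67 and 1.42, and *P2ry12* at -5.62, -5.19 and -5.28.

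**Figure D5:**
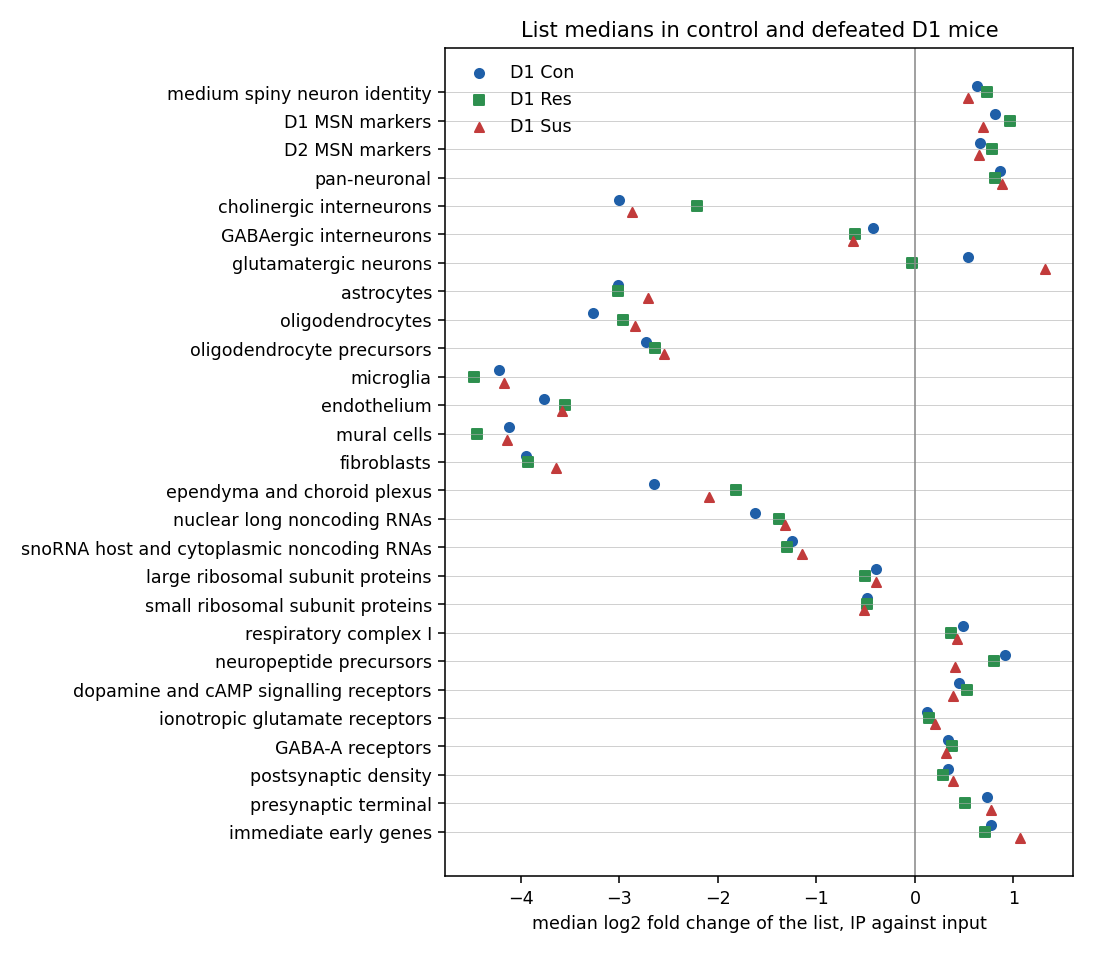
Median log2 fold change of IP against input for each list in D1 Con (circles), D1 Res (squares) and D1 Sus (triangles) mice. The 3 symbols lie close together for most lists, and they are furthest apart for glutamatergic genes, at 0.54, -0.03 and 1.32.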

How the data were processed

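RNA from HA immunoprecipitates and from saved homogenate supernatant was selected for poly-A tails, made into libraries with a stranded KAPA kit and sequenced on a NextSeq500. The authors deposited 1 table of raw read counts per gene, and the submitters' processing notes name cutadapt, FastQC, STAR, HTSeq and the build mm10, with versions and the strand setting of the counting not given in the sources used here. The notes also name DESeq2 and HOMER. Value columns without a sample record, 2 in number, were not used. Entries that name no gene took 20.0% of reads in IP and 37.0% in input and entered neither library sizes nor tests. A deposited count table of floxed *Sirt1* mice was not used here.

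Counts were tested in R 4.3.3 with edgeR 4.0.16 (quasi-likelihood test, TMM factors, a minimum count of 10 and total of 15) over 15 control libraries with 1 mean per group. The difference from D2 Con is an interaction contrast in this model, and that from defeated mice one in a model of 22 D1 libraries, with Res and Sus averaged. A call needed a fold change over 1.5 and a Benjamini-Hochberg adjusted p under 0.05. CPM were scaled by TMM factors. Precision is limited by 4 IPs and 3 inputs at 20516069 to 30187149 counts, and p-values measure the spread between pooled samples of 2 mice. No pair of D1 Con replicates agreed within sampling noise. On simulated counts for the D1 Con comparison (14559 genes), 74.6% of 1.5-fold, 82.4% of 2-fold and 98.4% of 4-fold changes were found. For the comparison with defeated mice (14742 genes) the shares were 53.3%, 68.2% and 90.1%. Found means an edgeR adjusted p under 0.05 in the simulated direction, without the fold threshold of a call. In the D1 Con simulation the 1.5-fold changes had a median of 0.583 on the log2 scale, so fewer of them would be called. It changed 67, 68 and 63 genes by 1.5-fold, 2-fold and 4-fold and left all others without a group difference. In the data 10510 of 14922 genes had an edgeR adjusted p under 0.05, so the adjustment was stricter in the simulation. The found shares therefore do not carry over to the D1 Con comparison itself.

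The libraries and gene lists were chosen with earlier results of these data known. Besides list members, the text names the 10 largest called changes in each direction with separate groups and at least 10 CPM, and the 5 largest called D1 to D2 differences with at least 5 CPM. Alternatives were other scalings (RLE, upper quartile, library size only), filters, DESeq2 1.42.0, glmTreat, a replicate block, the 7 D1 Con libraries alone, and leaving out each library. Gene positions and transcript starts come from GENCODE models on GRCm38, which matched 14696 of 14922 genes. Some genes that these rules or lists would name are not reported here.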

Additional observations from a re-analysis of the deposited data

Results flagged for a closer look

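In 13 of 151 groups of 4 values checked, 1 IP library lay far from the other 3, its gap to the nearest of them, as a part of the whole range, being above Dixon's 95% limit for 4 samples. Chance gives about 1 such group in 20. D1 Con IP 1 was highest for *Ppp1r1b* (2207 CPM), *Pde10a* (1411 CPM), *Rgs9* (715 CPM), *Dclk3* (428 CPM), *Tac1* (409 CPM), *Gpr6* (67.1 CPM), *Gabrd* (188 CPM) and *Slc4a4* (193 CPM) and for the summed MSN identity list (18736 CPM), and lowest for the summed cholinergic list (20.2 CPM). *Mbp* was lowest in IP 2 (201 CPM), *Lhx8* lowest in IP 3 (3.84 CPM) and *Slc18a3* highest in IP 4 (0.751 CPM).

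The ratio of IP to input differed between D1 and D2 controls, by the edgeR test of the difference itself, for 38 of the genes named above, 16 of them higher in D1 and 22 lower. All values are log2 differences, D1 minus D2. Among D1 markers these were *Pdyn* (2.12), *Drd1* (1.12), *Tac1* (0.69), *Chrm4* (0.74), *Isl1* (1.41), *Slc35d3* (1.41), *Sfxn1* (0.61) and *Zfp521* (1.02). Among D2 markers they were *Penk* (-1.56), *Adora2a* (-1.66), *Drd2* (-1.49), *Gpr6* (-1.66) and *Upb1* (-1.63), and among other genes of medium spiny neurons *Rasd2* (-0.73), *Rxrg* (-0.67) and *Foxp1* (-0.65). Genes of interneurons gave *Slc18a3* (-4.67), *Chat* (-3.77), *Slc5a7* (-3.50), *Slc10a4* (-2.93), *Tacr1* (-1.95), *Npy* (-1.16) and *Pthlh* (4.00). Further values were those of *Slc17a7* (2.71), *Rorb* (1.70), *Cck* (2.50), *Bdnf* (3.12), *Adcyap1* (3.44), *Crh* (1.81) and *Ebf1* (3.07). Noncoding RNAs gave *Meg3* (-0.77), *Snhg11* (-0.72) and *Snhg14* (-0.66). The rest were *Nedd9* (-0.61), *Aftph* (-0.65), *Hsf2* (-0.67), *Bcar1* (-0.72) and *P2ry12* (-0.98). The difference of *P2ry12* lost its call without any 1 of 12 libraries, with values from -1.07 to -0.79. Of these 38 differences, 15 stayed called under every alternative tried.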

How the results depend on the processing

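The count of genes higher in IP, 2135, was 777 with library size only, 1351 with upper quartile factors, 1311 among genes averaging 50 counts or more, 1157 with glmTreat against a fold of 1.5 and 5154 with the adjusted p alone, while the count of lower genes stayed within 1.5 times its value throughout. Of the called genes, 34.6% were higher with TMM factors, 13.1% with library size only and 22.97% with upper quartile factors. Leaving out each library gave 2048 to 2303 higher and 3876 to 4103 lower. The difference between D1 and D2, with 342 higher and 165 lower, gave 308 lower with library size only, 305 lower with the adjusted p alone, and 28 higher and 25 lower with glmTreat. It gave 177 to 535 higher and 97 to 225 lower without single libraries, with 535 higher without D1 Con IP 1, 218 without D1 Con IP 2, 177 without D1 Con input 1, 181 without D2 Con input 1 and 207 without D2 Con input 2. The comparison with defeated mice gave 0 calls under every alternative. With a replicate block the D1 comparison gave 2224 higher and 4014 lower, and the difference between lines 237 and 134. The deviations of same-numbered IP and input libraries from their groups had correlations of 0.494, 0.0094 and 0.146. IP 1 and IP 3 correlated best with the input of their own number, and IP 2 with input 3 (0.296). These values did not settle whether the numbers mark pairs, and the numbers were not treated as pairs. The share of reads outside annotated features differed by -13.1 points under the replicate block (exact permutation p = 0.25, the smallest that 3 pairs allow) and by -13.5 to -12.5 points without single libraries (exact p = 0.0667 to 0.1, the smallest those designs allow).

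With library size only, the direction reversed for the median of ionotropic glutamate receptors (-0.12) and for the uncalled genes *Ebf1* (-0.0065), *Eya1* (-0.22), *Gng7* (-0.16), *Rgs9* (-0.012) and *Tagln* (-0.0081). *Eya1* and *Gng7* were at -0.092 and -0.033 with upper quartile factors and at -0.091 and -0.032 with the filter on high counts, which left fewer ependymal genes and moved their median to 0.28. *Eya1* was at -0.062 without the first IP and input, an alternative chosen after seeing the data, and between -0.14 and 0.30 without single libraries. Of 97 named genes called between IP and input, 0 reversed and 86 stayed called throughout. With library size only, *Bdnf*, *Drd1*, *Fos*, *Grin1*, *Isl1* and *Rxrg* lost the call, and with the replicate block the D1 to D2 differences of *P2ry12* (-1.11), *Foxp1* (-0.56) and *Rxrg* (-0.57) did. Apart from stricter filters and thresholds, the cause was not tested.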
